A study of Danio rerio with 4 samples.

Results

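The ms4a genes of the zebrafish encode membrane-spanning proteins of the family that holds mammalian CD20. They were followed here through all 18 of 37176 array features that carry a current symbol starting with ms4a, or no symbol and a human ortholog name starting with MS4A. Of the 18, 15 named 12 genes, 3 of which (ms4a17a.1, ms4a17a.5 and ms4a17a.9) had 2 features each, and 3 features carried only a human name. The deposited annotation still lists most of these genes under clone names such as zgc:111985, so its symbols were updated first; read literally, the symbols in the file would have given 5 features. The series holds 4 single-colour arrays of RNA from whole embryos, 2 from fish with the transgene Tg(hsp70-hRASG12V), in which the promoter of hsp70 drives an oncogenic form of human HRAS after heating, and 2 from wild-type fish. All embryos, controls included, were held at 37 °C for 1 h when 24 h old, then at 28.5 °C until RNA was taken at an age of 30 h. Each array is a pool of 50 embryos by the design text, which speaks of 3 biological replicates. Only 2 arrays per genotype were analysed. The titles tag the wild type as ab, and an effect of strain background, clutch or handling cannot be told apart from one of the transgene.

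MS4A proteins cross the cell membrane several times and have both ends in the cytoplasm. In mammals MS4A1 (CD20) marks B cells and takes part in their receptor and calcium signalling, MS4A2 is the beta chain of the IgE receptor of mast cells and basophils, and MS4A4A is found on macrophages and mast cells. The zebrafish ms4a17a genes are a tandem array of copies named by number, and no function of a single copy is assumed here.

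In the transgenic embryos a group of ms4a17a copies stood far above the wild type, led by ms4a17a.1, ms4a17a.2, ms4a17a.5 and ms4a17a.11, while ms4a17a.7 was 2.04-fold higher and ms4a17a.16 was lower. For ms4a17a.5 this holds for the dimmer of its features only, and ms4a17a.11 was dim in the wild type. The lower call of ms4a17a.16 depended on the processing. Since the genes were brought up because of this very contrast of genotypes, their values are given as a description, without p-values, and support nothing beyond themselves. With limma's fit across all features at an adjusted p of 0.05, 9 of the 18 features were called higher, against 10.3% of all features, and 1 was called lower, against 7.28%. The median log2 fold change was 0.89 over the 18 features and 0.01 over all features. Of the 18, 5 were at least 4-fold higher, as were 1.32% of all features. The smallest of the 5, in ms4a17a.11, fell below 4-fold under quantile normalization, under median centring and with 50 added to the unlogged values.

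The largest difference was in the dimmer feature of ms4a17a.1, whose 2 features agreed in direction but not in size. The feature OTTDART00000029877 (A in the plots) read 11.20 and 10.94 (log2) on the transgenic arrays and 7.65 and 7.49 on the wild-type arrays. Both transgenic arrays were thus high and both wild-type arrays low, with no overlap, and the log2 fold change was 3.50 ± 0.17 (SE, n = 2 arrays per genotype), an 11.3-fold difference. It was the rise ranked 32 among all features. The wild-type readings of feature A lay not far above the 25th percentile of their arrays (7.05 to 7.08). With 50 added to the unlogged values its difference was 3.19. The second feature of the gene, OTTDART00000029878 (B), read 13.51 and 13.35 on the transgenic arrays and 10.58 and 10.48 on the wild-type arrays. Again the groups stood well apart, by 2.90 ± 0.15 or 7.49-fold. Over the array pairs the difference ran from 2.77 to 3.04 in feature B, below the 3.29 to 3.70 of feature A.

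Readings of ms4a17a.2 were 13.98 and 13.47 on the transgenic arrays and 10.73 and 10.83 on the wild-type arrays. The transgenic arrays differed from each other by more than the wild-type arrays did, but the groups were separated by 2.95 ± 0.21, or 7.72-fold. In the transgenic arrays its mean lay at percentile 95.3 of all features, against 66.1 in the wild type.

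The gene ms4a17a.5 showed 2 features that were both higher without overlap but disagreed in size. Its feature OTTDART00000029879 (A) read 10.83 and 10.38 on the transgenic arrays and 7.89 and 7.61 on the wild-type arrays, a difference of 2.85 ± 0.22 or 7.23-fold. Its feature OTTDART00000029880 (B) read 14.82 and 14.46 against 14.10 and 14.25, a difference of only 0.46 ± 0.18 that did not pass. It did pass with a trended prior. Feature B was already among the brightest on the array in the wild type, at percentile 97.4, and the highest value of any feature was 16.04. Whether feature B reports another transcript, another copy or a compressed signal was not tested.

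The gene ms4a17a.11, listed as ms4a4a in the file, read 8.75 and 8.83 on the transgenic arrays and 6.78 and 6.64 on the wild-type arrays. The groups did not overlap and the readings differed by 2.08 ± 0.14, or 4.23-fold. Both wild-type readings lay below the 25th percentile of their arrays (7.05 to 7.08), a cut chosen here for dim readings. With no detection call, signal below it may not be told from background. These sizes are therefore those of the readings, and the true difference may be larger. The difference also depended on the processing. It was 1.99 under quantile normalization, 1.99 under median centring and 1.67 with 50 added to the unlogged values. An unnamed feature with the human name MS4A4A, TC250361, read 11.50 and 11.74 against 9.94 and 9.42. Its difference was 1.94 ± 0.23, at a level well clear of the 25th percentile.

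The copy ms4a17a.7 read 12.53 and 12.54 on the transgenic arrays and 11.63 and 11.38 on the wild-type arrays. The transgenic arrays were almost equal and both above the wild type, by 1.03 ± 0.16 or 2.04-fold. The feature A of ms4a17a.9, OTTDART00000029886, read 12.30 and 11.97 against 11.47 and 11.31, a difference of 0.75 ± 0.18. That call was the least secure of the 9, since it ended under quantile normalization (0.71), median centring (0.66) and the robust prior, and without wild-type replicate 2 (0.67). The feature B of the same gene, OTTDART00000029885, read 8.49 and 8.59 against 8.33 and 8.55, so the wild-type and transgenic ranges overlapped.

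An unnamed feature with the human name MS4A8B, ENSDART00000017368, was also called higher, at 5.08 and 5.21 against 3.50 and 3.83 (1.48 ± 0.18). All 4 readings were in the lowest part of the array, with a mean percentile of 3.75 in the wild type and 11.3 in the transgenic arrays, so the size of this difference is uncertain. The copy ms4a17a.10 read 8.58 and 7.82 against 7.40 and 6.90. Its groups did not overlap, but its log2 fold change of 1.05 ± 0.32 did not pass, with the transgenic arrays far from each other.

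Against these stood copies with little or opposite difference. The copy ms4a17a.16, with the human name MS4A8B, read 6.68 and 6.32 on the transgenic arrays and 7.30 and 7.20 on the wild-type arrays and was the one feature called lower (-0.75 ± 0.18, 1.69-fold). Both transgenic readings lay below the 25th percentile of their arrays, so the size is uncertain. The call ended with a trended or robust prior and with 50 added to the unlogged values. Without wild-type replicate 1 the difference was -0.70. The unnamed feature ZV700S00004657, with the human name MS4A4A, had a larger but more variable difference of -1.30 ± 0.51, from 5.05 and 4.28 against 6.64 and 5.29, and did not pass. All 4 of its readings lay below the 25th percentile, and leaving out an array moved the value between -0.63 (without wild-type replicate 1) and -1.97 (without wild-type replicate 2).

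The remaining features did not pass and had overlapping groups. The copy ms4a17a.8 read 11.48 and 11.28 on the transgenic arrays and 11.32 and 10.95 on the wild-type arrays, a difference of 0.25 ± 0.19 at a level well inside the measured range. The copies ms4a17a.6 (0.58 ± 0.59) and ms4a17a.17 (-0.17 ± 0.32), and ms4a17c.1 (0.08 ± 0.18), the one named gene outside the ms4a17a series, lay below the 25th percentile on all 4 arrays. A true difference in these 3 genes would be hard to see at such levels.

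**Figure D1:**
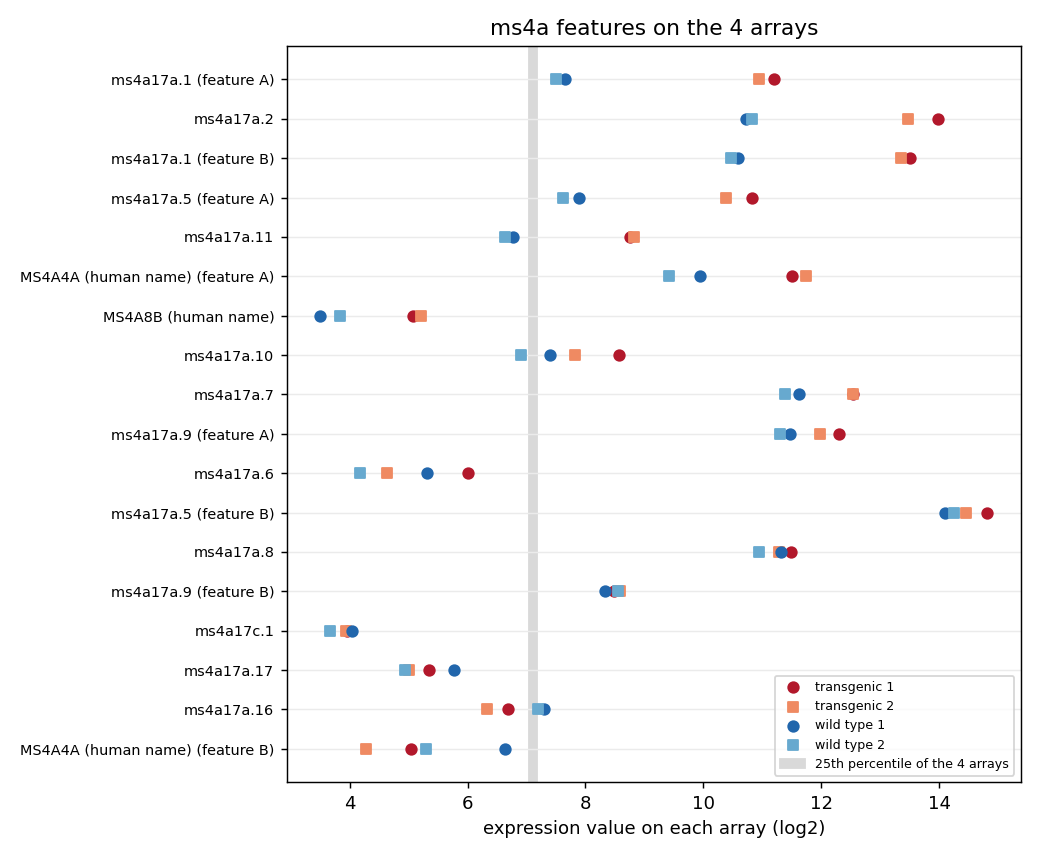
Expression value (log2, horizontal axis) of each of the 18 ms4a features on the 2 transgenic and 2 wild-type arrays, ordered by the difference between genotypes, with the 25th percentile of the arrays in grey. The top 5 rows show transgenic points at least 1.97 above the wild-type points, while the rows below show smaller gaps, overlapping points or readings left of the grey band.

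Across the family the groups did not overlap for 11 features with the transgenic arrays higher, against 34.4% of all features, and for 2 with the transgenic arrays lower, against 33.1%; the other 5 overlapped. Ordered by difference, the transgenic-minus-wild-type range of ms4a17a.1 (feature A, 3.29 to 3.70 over the 4 array pairs) lay above that of ms4a17a.2 (2.64 to 3.25). The ranges of ms4a17a.2, feature B of ms4a17a.1 and feature A of ms4a17a.5 overlapped one another, and the lowest of them (2.49 to 3.22) lay above that of ms4a17a.11 (1.97 to 2.19). The place of ms4a17a.11 is uncertain, since its wild-type readings were dim. Those of feature A of ms4a17a.1 and feature A of ms4a17a.5 lay not far above the 25th percentile, so their places are less sure too. All other adjacent pairs in the order had overlapping ranges. The median absolute difference between replicates over the 18 features was 0.26 in the wild type and 0.29 in the transgenic arrays. Over all features it was 0.24 in the wild type and 0.14 in the transgenic arrays. Wild-type replicate 1 read above replicate 2 for 14 of the 18 features, and transgenic replicate 1 above replicate 2 for 13.

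One more feature stood just outside the rule. The feature si:dkey-204h11.1 keeps its clone name and has the human name MS4A8B; its clone prefix is shared with former names of ms4a17a.2 and ms4a17a.8. Its mean was 11.96 (SD 0.0643, n = 2) on the transgenic arrays and 10.88 (SD 0.0657) on the wild-type arrays, without overlap, a difference of 1.07 ± 0.14 or 2.11-fold.

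In the RefSeq gene table of the assembly GRCz12tu, 15 of 16 ms4a genes lie in a single block, and 11 of the 15 had a named feature. The block also holds genes of other names, so the copies are not an unbroken run, and their order here is that among ms4a genes. Of the 12 named genes, 6 had a feature called higher, 1 had one called lower and 5 had none. By brightest feature alone, 10.4% of all named genes were called higher and 7.49% lower. These measures differ, since any feature counted for the 12 genes, and the brightest feature of ms4a17a.5 was not called. The copies called higher lay in the middle of the block: ms4a17a.11 and ms4a17a.9, then, past ms4a17a.8, the run of ms4a17a.5, ms4a17a.2, ms4a17a.1 and ms4a17a.7. The lower copy, ms4a17a.16, and ms4a17a.17 stand at one end of it. No feature was named for ms4a17a.14, ms4a17a.3, ms4a17a.4 or ms4a17a.12. Probe sequences were not used here, so a reading may include signal from neighbouring copies of similar sequence, and which single copy is measured is uncertain for every ms4a17a feature.

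**Figure D2:**
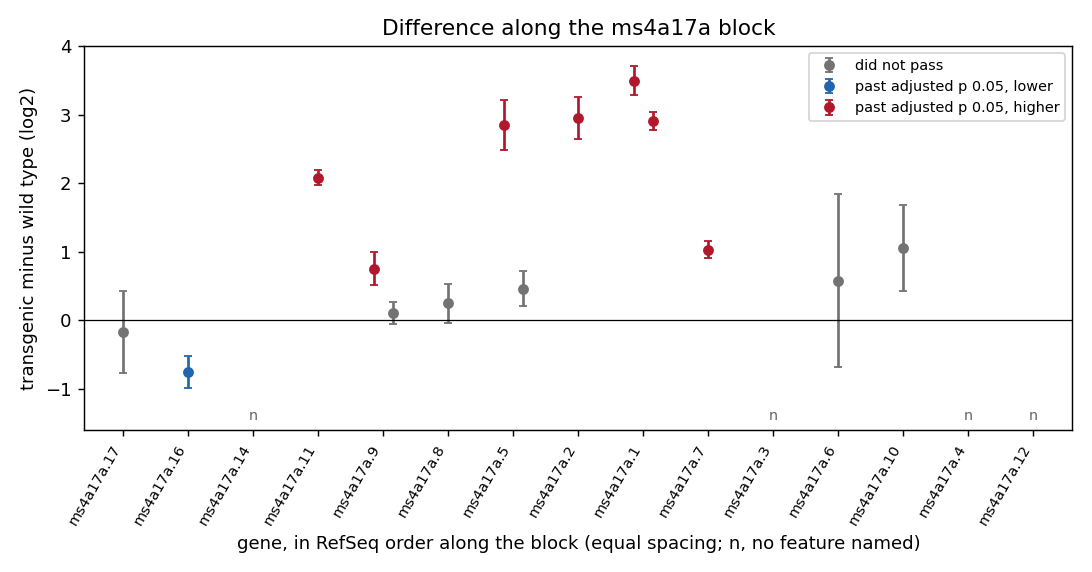
Log2 difference, transgenic minus wild type (vertical axis), of each named feature in the ms4a17a block, with genes in RefSeq order at equal spacing; bars span the 4 pairs of arrays. The differences peak at 3.50 in ms4a17a.1 near the middle, and ms4a17a.16 at one end lies at -0.75.

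The genes on either side of the ms4a genes, some of them between copies, were examined to see whether the surrounding chromosome shared the difference. Of 42 RefSeq genes within 10 places of an ms4a gene, 16 were measured by symbol. Limma called 0 of the 16 at an adjusted p of 0.05, against 17.9% of all named genes, and 5 had an unadjusted p under 0.05. These are counts by the brightest feature: 1 of the 3 features of ftr51 and 1 of the 5 of med22 passed, and 2 genes passed when the features of a gene were averaged. Only 5 of the 16 belong to the ms4a17a block. Their median log2 fold change was 0.01 and they ranged from -0.53 to 0.19. The closest to a call was ftr51, a gene of the fish-specific finTRIM family, at -0.53 ± 0.15 (limma adjusted p = 0.074). The other 11 lie around ms4a17c.1 and had a median of 0.44. They include ptges, a prostaglandin E synthase gene (0.38 ± 0.16, adjusted p = 0.15), fibcd1b (0.46 ± 0.14, adjusted p = 0.084), zgc:103692 (0.44 ± 0.14, adjusted p = 0.089), si:dkeyp-72a4.1 (0.60 ± 0.20, adjusted p = 0.10) and med22, a subunit gene of the Mediator complex (-0.68 ± 0.23, adjusted p = 0.10).

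Mammalian MS4A proteins work beside Fc and B cell receptors and the calcium entry machinery, so zebrafish genes of these partners were followed too. Of 27 listed genes, 10 were measured by symbol; 2 were called higher and 0 lower (10.4% and 7.49% of all named genes), and the median was 0.34. The gene itpr2, an inositol trisphosphate receptor that releases calcium from the endoplasmic reticulum, read 9.55 and 9.68 on the transgenic arrays and 8.02 and 8.54 on the wild-type arrays. It rose by 1.34 ± 0.22 (limma adjusted p = 0.023), and both of its features passed. The gene btk, a kinase of B cell receptor and myeloid signalling, read 10.05 and 10.24 against 9.36 and 8.87. It rose by 1.03 ± 0.21 (adjusted p = 0.038) but no longer passed after quantile normalization, at an adjusted p of 0.050.

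The other partners with the smallest p did not pass. They were cd81b, a tetraspanin gene (0.56 ± 0.16, adjusted p = 0.072), the calcium sensor gene stim1b (0.69 ± 0.24, adjusted p = 0.11), the calcium channel gene orai1a (0.39 ± 0.16, adjusted p = 0.16) and the kinase gene lyn (0.28 ± 0.14, adjusted p = 0.21). The adaptor gene blnk (-0.24 ± 0.14) and the kinase gene syk (-0.16 ± 0.17), which act in the same receptor pathways, did not pass either. No feature was found by symbol for the tmem176 genes, which share the CD20-like fold, or for cd79a and cd79b. By human ortholog name, the brightest features of PTPN6 (0.12 ± 0.19), ITPR1 (-0.15 ± 0.16) and ITPR3 (-0.23 ± 0.19) did not pass. However, 1 of the 3 features named ITPR1, that of itpr2, passed upward and 3 of the 9 named ITPR3 passed downward. Across the array, 10.3% of all features were called higher and 7.28% lower.

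Because mammalian MS4A genes are used as leukocyte markers, the leukocyte genes of the embryos were set beside the ms4a copies. In RNA of whole embryos, fewer cells of a type and less RNA per cell cannot be told apart. Of 42 listed leukocyte markers, 24 were measured by symbol, of which 1 was called higher and 0 lower (10.4% and 7.49% of all named genes). Their median was -0.04. Markers found only by human ortholog name are not in these counts and are given further below. The count of calls was 6 without wild-type replicate 1; 11 of the 24 lay below the 25th percentile on all 4 arrays. The mean level of the list was 7.40 and 7.55 (log2) in the transgenic arrays and 7.46 and 7.40 in the wild-type arrays. The one call was csf1ra, a receptor gene of macrophages and of pigment cells, at 8.52 and 8.57 against 6.87 and 6.75 (1.74 ± 0.14, limma adjusted p = 0.0091); its wild-type readings lay below the 25th percentile, so the size is uncertain.

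In the macrophage list by itself, of 9 genes measured by symbol, 1 was called higher and 0 lower (10.4% and 7.49% of all named genes). Of the 9, 4 lay below the 25th percentile on all 4 arrays, marco and c1qa among them, so their estimates are uncertain. Mean levels of that list were 6.55 and 6.82 in the transgenic arrays and 6.65 and 6.59 in the wild-type arrays. The estimate was -0.50 ± 0.20 (adjusted p = 0.14) for mpeg1.1, which encodes a perforin-like protein of macrophages. Its paralog mpeg1.2 differed by -0.32 ± 0.15 (adjusted p = 0.20) and the scavenger receptor gene marco by -0.66 ± 0.28 (adjusted p = 0.16). None of the 3 was called. The estimate was on the other side of 0 for the complement gene c1qa (0.51 ± 0.27, adjusted p = 0.23) and for mfap4.1 (0.09 ± 0.20), neither of which was called.

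Of 8 lymphoid markers 0 were called, against 17.9% of all named genes, and 6 lay below the 25th percentile on all arrays. The smallest p values were in zap70 (-0.35 ± 0.15), cd8a (-0.30 ± 0.14), ighm (0.89 ± 0.41) and cd4-1 (-0.60 ± 0.28), with adjusted p of 0.16 to 0.20. Of 3 neutrophil genes measured by symbol 0 were called. They were ncf1, an NADPH oxidase subunit gene (-0.16 ± 0.14), cebpa (-0.03 ± 0.14) and cxcr1 (-0.01 ± 0.26). The one gene measured from the mast cell list, gata2a, differed by -0.15 ± 0.15. The pan-leukocyte genes spi1b (0.21 ± 0.23), coro1a (-0.05 ± 0.14) and arhgdig (0.29 ± 0.14) did not pass. In the wild type gata2a and pax5, of the lymphoid list, were bright, at percentiles 79.6 and 82.4. Which cells gave these whole-embryo readings was not tested.

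Features found by human ortholog name were added after the first look at the lists. Of 5 human names, each by its brightest feature, 2 were called higher and 0 lower (10.3% and 7.28% of all features). The 2 were MPO (0.78 ± 0.16, limma adjusted p = 0.038), a granule peroxidase of neutrophils, and LCP1 (0.68 ± 0.15, adjusted p = 0.039), a leukocyte actin bundling protein. LYZ, a lysozyme, differed by 0.63 ± 0.18 (adjusted p = 0.070), PTPRC, the pan-leukocyte phosphatase CD45, by -0.61 ± 0.31 (adjusted p = 0.22, with 1 of its 3 features called lower) and LAPTM5 by -0.22 ± 0.18 (adjusted p = 0.43). The part of leukocytes in the ms4a17a values was not tested.

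Skin genes were the other background looked at, since whole embryos hold much epidermis. Of 13 epidermal genes measured, 1 was called higher and 1 lower (10.4% and 7.49% of all named genes). The E-cadherin gene cdh1 rose by 1.34 ± 0.14 (limma adjusted p = 0.012) and the keratin gene krt1-19e fell by 0.92 ± 0.16 (adjusted p = 0.026). The tight junction gene cldne (0.54 ± 0.14, adjusted p = 0.056) and evpla (0.50 ± 0.18, adjusted p = 0.12) did not pass, and the list had a median of -0.07. Among 8 ionocyte genes, 0 were called higher and 1 lower, and the median was -0.27. The lower one was gcm2, a factor gene of these ion-transporting skin cells (-0.71 ± 0.14, adjusted p = 0.033), of whose 2 features 1 passed. The genes ca2 (0.66 ± 0.16, adjusted p = 0.052), foxi3b (-0.40 ± 0.14, adjusted p = 0.11) and trpv6 (-0.34 ± 0.14, adjusted p = 0.15) did not pass. The olfactory genes cnga4 (-0.45 ± 0.18) and trpc2b (0.23 ± 0.37) were not called. The part of these tissues in the ms4a17a values was not tested.

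**Figure D3:**
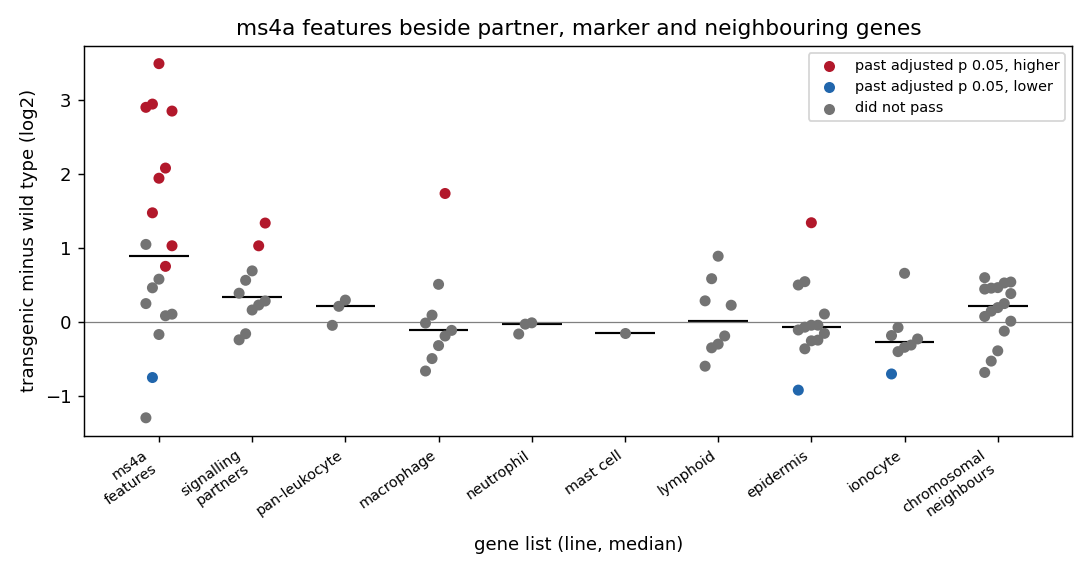
Log2 difference, transgenic minus wild type (vertical axis), of the 18 ms4a features beside genes of the partner, leukocyte, skin and neighbour lists, 1 point per feature or gene, with list medians as lines. The ms4a median is 0.89, against 0.34 for signalling partners, -0.11 for macrophage genes and 0.22 for chromosomal neighbours. Partner and leukocyte genes found only by human name are not shown.

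The label of whole embryo was checked on genes of several tissues. The muscle genes acta1b and tnnt3b, the blood gene hbae3 and the skin gene krt4 read 15.10 to 15.88 on every array, hbbe3 and cryba1b, of blood and lens, read 13.24 to 14.42, and a feature named ELAVL3, a neuronal gene, read 14.96 to 15.28. The heart gene myl7 read 5.96 to 6.43, below the 25th percentile on all arrays. None of the 8 whole-embryo genes measured by symbol was called, against 17.9% of all named genes. The smallest p was that of ctslb, of the hatching gland (0.81 ± 0.21, limma adjusted p = 0.058).

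The genes with array values most like feature A of ms4a17a.1 were chosen by the distance, over the 4 arrays, between values that had the wild-type mean taken off. The 5 nearest genes with a symbol were fstl3, which encodes an activin-binding protein (distance 0.41), junba, an AP-1 subunit gene (0.47), si:dkey-73n10.5 (0.50), socs3a, a feedback inhibitor gene of cytokine signalling (0.51), and rxfp2a, a relaxin receptor gene (0.54). All 5 were nearer to it than feature B of the same gene (0.84) or ms4a17a.2 (0.82). The gene rxfp2a read 9.37 and 9.51 on the transgenic arrays and 6.19 and 6.29 on the wild-type arrays, a difference of 3.19 ± 0.15. Its wild-type readings and those of fstl3 lay below the 25th percentile, so their distances rest partly on signal that may not be told from background. With 4 arrays in 2 groups, this likeness reflects little more than a difference of similar size.

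**Figure D4:**
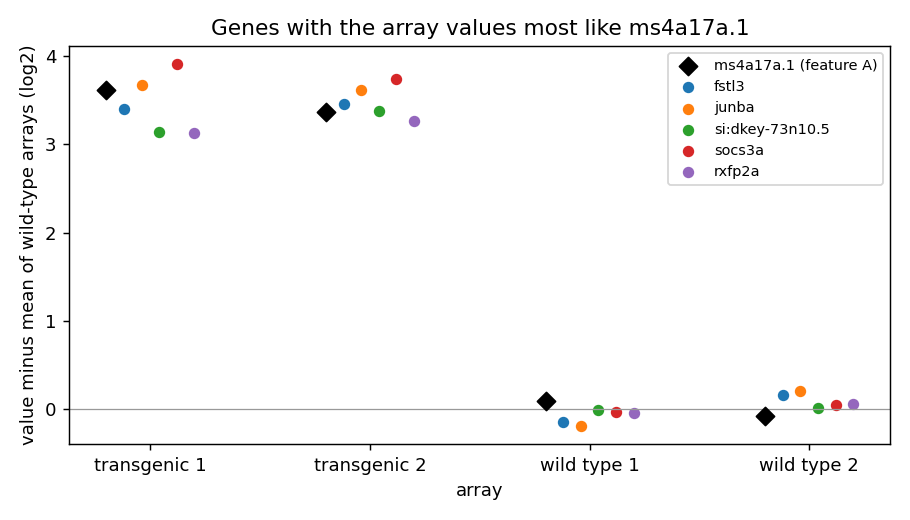
Value on each array minus the mean of the wild-type arrays (log2, vertical axis) for feature A of ms4a17a.1 and the 5 nearest genes. On both transgenic arrays all 6 sit more than 3 above the wild-type mean, and on the wild-type arrays they sit close to 0.

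In the authors' deposited table, 13 ms4a features have a q-value under 0.05 and a rise, and 2 have one and a fall. That table gives such a q-value to 34.9% of all features with a rise and 32.7% with a fall, so it calls far more features than the limma fit does. It lists a q of 0 for 9 of the 18 features, ms4a17a.10 among them. Without either transgenic array 0 of all 37176 features passed in limma; such a fit has 1 array in that genotype, takes all of its spread from the wild-type pair and assumes that the lone array varies alike. In these fits the difference of ms4a17a.1 (feature A) was 3.37 without transgenic replicate 1 and 3.62 without replicate 2.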

How the data were processed

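Labelling (Cy3) and hybridisation were done by Roche NimbleGen on Trizol-extracted RNA, per the labels. The authors deposited 1 log2 value per feature and array; base 2 was inferred from the top values, near the limit of a 16-bit scanner. How probes were summarised, background-corrected and normalized is not stated in the labels or file headers. The authors also deposited a log2 fold change and a q-value (a p-value adjusted for many tests) per feature, per the file headers; their fold change equals the difference of group means within 2.85e-08. With no detection call, slide or scan date, batches could not be tested, and the number of arrays limits the precision.

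Symbols were updated by RefSeq accession (2663 features), current symbol (4969), synonym (5753) or gene number (1978) through a RefSeq table of GRCz12tu; 5915 kept the file's symbol. Transgenic minus wild type was fitted for all 37176 features with limma 3.58.1 (lmFit, eBayes; R 4.3.3; 2 residual and 2.92 prior degrees of freedom) and adjusted by Benjamini-Hochberg; the fit was tested on simulated data. The brightest feature stood for a gene. Members, lists and tests were chosen with earlier results of these data known. Named genes were every ms4a feature, every called partner or leukocyte gene, up to 4 genes per list and 6 neighbours with the smallest p, and the 5 genes most like the top feature (LOC and protein-database names passed over). The genes blnk and syk, the features found by human name and the further whole-embryo genes were named after their values were seen. The design text calls the replicates biological, but the labels do not say that arrays came from separate clutches. The p-values measure the spread between these samples, which may be smaller than that between clutches. Alternatives covered scaling, filters on dim features, the prior, the threshold, a replicate block and leaving out each array.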

Additional observations from a re-analysis of the deposited data

How the results depend on the processing

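Leaving out an array leaves 1 array in its genotype, which is assumed to vary like the pair of the other genotype, the one source of spread in that fit. Done for each array in turn, this gave 0 to 12163 calls over all features, 0 to 9 ms4a features called higher and 0 to 2 lower, 0 to 3 partner genes, 0 to 6 leukocyte markers and 0 to 3 neighbours, with 0 throughout when either transgenic array was left out; without wild-type replicate 1 the leukocyte count was 6, and without wild-type replicate 2 the count over all features was 12163. The count over all features (6538) became 11247 at an adjusted p of 0.10 and 25150 by the deposited q-value. The ms4a features called higher (9) became 5 when features below the median were left out, which removes dim members, and stayed within 8 to 13 under the other alternatives that kept all arrays. The 1 lower call became 0 with features below the 25th percentile or the median left out, with the trended prior and with the robust prior. It also became 0 with 50 added to the unlogged values, and 2 by the deposited q-value. The replicate number as a block gave 10 higher and 2 lower ms4a features and 7291 calls in all; same-numbered deviations correlated at 0.21 over features, but with 2 pairs the numbers show no pairing. Partner calls became 1 under quantile normalization. Leukocyte calls became 0 without features below the median, a filter that removed csf1ra. Neighbour calls became 1 under quantile normalization, median centring, the 25th percentile filter, the trended prior and with 50 added to the unlogged values. They became 2 with the median filter and with features of a gene averaged, and 3 at an adjusted p of 0.10. A separate list, chosen after seeing the data, took the 10 protein-coding genes on either side of each ms4a gene. It holds 40 genes, of which 22 were measured by symbol. By brightest feature 0 of them were called, against 17.9% of all named genes. However, 1 of the 2 features of si:dkey-240n22.1 passed, as did 1 of the 3 of ftr51 and 1 of the 5 of med22. The brightest feature of si:dkey-240n22.1 differed by 0.90 ± 0.23 (limma adjusted p = 0.057). Signs turned in small or dim differences when single arrays were left out, in ms4a17a.6 (-0.11 to 1.27), feature B of ms4a17a.9 (-0.0047 to 0.21), ms4a17c.1 (-0.10 to 0.27, and -0.0096 under median centring), ms4a17a.17 (-0.59 to 0.25), spi1b (-0.054 to 0.47), coro1a (-0.11 to 0.018), cxcr1 (-0.36 to 0.33) and trpc2b (-0.19 to 0.64), over the 4 arrays left out. The ranges for cxcr1 and trpc2b hold further values of turned sign, 0.016 without transgenic replicate 1 and -0.13 without transgenic replicate 2, and that for ms4a17a.17 holds 0.0013 without transgenic replicate 2. The cause of these changes was not tested.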
